A study of Drosophila melanogaster with 8 samples.

Results

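Kc cells that had received Sxl dsRNA alone were set against Kc cells that had received Sxl dsRNA together with Msl2 dsRNA, so the comparison asks what Msl2 dsRNA changes in cells that also receive Sxl dsRNA. It used the 5 arrays of these groups out of 8 in the series: 3 arrays labelled Sxl RNAi (replicates 1, 2 and 3) and 2 labelled Sxl and Msl2 RNAi, the double knockdown (replicates 1 and 2), chosen by their labels alone. The other 3 arrays, of cells given GFP dsRNA as a control, tied the samples together. The labels name the GFP array that served as background for each knockdown array, which makes 3 control sets: Sxl RNAi replicate 2 and double knockdown replicate 1 share set 1, Sxl RNAi replicate 3 and double knockdown replicate 2 share set 3, and Sxl RNAi replicate 1 stands in set 2 with no double knockdown array. All cells were of the Kc line, a female Drosophila melanogaster line derived from embryos with features of blood cells, and total RNA was hybridised to Affymetrix arrays. Values are log2 expression after robust multi-array averaging (RMA), so a difference of 1 is a doubling.

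In Drosophila, males transcribe their single X chromosome more strongly so that its output matches that of the 2 X chromosomes of females. The MSL complex does this: it holds the proteins MSL1, MSL2, MSL3, the acetyltransferase MOF and the RNA helicase MLE together with roX RNAs, binds the male X and acetylates histone H4 at lysine 16. Females lack the complex because SXL, the switch protein of female development, blocks production of MSL2.

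The labels do not say whether replicates came from separate cultures, so the p-values speak for the scatter among these arrays alone, and that scatter may be technical. They do not say either that the Sxl RNAi cells received a second, unrelated dsRNA. Loss of MSL2, the presence of a second dsRNA and any weaker depletion of Sxl in the double knockdown cannot be told apart. In bulk RNA a smaller fraction of cells expressing a gene and less RNA per cell cannot be told apart. The arrays of set 2 stood apart: Sxl RNAi replicate 1 and its GFP array correlated at 0.996 with each other over all probe sets, but at 0.985 to 0.988 with the 6 arrays of the other sets, which correlated at 0.992 or more among themselves. The fit held the control set as a block.

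The targeted genes were examined first. msl-2, which encodes the subunit that makes the complex male-specific, read 6.19, 5.33 and 5.61 in the Sxl RNAi arrays, against 4.16 and 4.13 in the double knockdown arrays and 4.32, 4.47 and 4.51 in the GFP arrays. Every Sxl RNAi array lay above every array of the other groups, and both double knockdown arrays lay below all GFP arrays. The fitted difference between Sxl RNAi and the double knockdown was 1.43 ± 0.15 (SE, limma, adjusted p = 0.00398), while the double knockdown differed from GFP RNAi by -0.16 (limma, adjusted p = 0.68). Without double knockdown replicate 1 or 2 the difference between the knockdowns was 1.57 or 1.30 and missed the threshold (limma, adjusted p = 0.0941 or 0.12). The table used holds no detection calls, so it is not known whether the low msl-2 values lie above background, and these differences are on the RMA scale only. Sxl itself, on its brightest probe set, read 6.64, 6.09 and 6.93 in Sxl RNAi arrays, against 6.65 and 7.37 in double knockdown arrays and 7.20, 7.01 and 6.99 in GFP arrays. The knockdown groups overlapped, with a difference of -0.47 ± 0.20 (SE, limma, adjusted p = 0.442). Against GFP RNAi, this probe set differed by -0.51 in Sxl RNAi (limma, adjusted p = 0.0934) and by -0.05 in the double knockdown (limma, adjusted p = 0.941). On a second probe set, Sxl read 6.51, 5.56 and 6.52 in Sxl RNAi arrays, against 6.24 and 6.41 in double knockdown arrays and 6.73, 6.87 and 6.91 in GFP arrays, so here every knockdown array was below every GFP array. In the fit of all probe sets its difference from GFP RNAi was -0.64 in Sxl RNAi (limma, adjusted p = 0.0373) and -0.43 in the double knockdown (limma, adjusted p = 0.31). A lower Sxl mRNA than in GFP RNAi thus passed the test only for Sxl RNAi on the second probe set and for the double knockdown on neither, and where the probes lie relative to the dsRNA was not examined here. Equal depletion of Sxl in the knockdown groups is therefore not established, and its part in the differences between them was not tested.

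Among the 8 measured genes of the MSL complex and its cofactors, msl-2, itself a dsRNA target, and mle rose and none fell, where 0.743% of all genes tested rose, and the median difference was 0.07, beside -0.01 over all 11982 genes. mle, the helicase that remodels roX RNA, read 6.36, 5.78 and 6.15 in Sxl RNAi arrays, against 5.20 and 5.52 in double knockdown arrays and 5.38, 5.67 and 5.90 in GFP arrays. All Sxl RNAi arrays were above both double knockdown arrays, and the difference was 0.67 ± 0.11 (SE, limma, adjusted p = 0.0242). mof, the acetyltransferase gene and the only X-linked member of this list, read 9.77, 9.55 and 9.39 in Sxl RNAi arrays, against 9.16 and 8.97 in double knockdown arrays and 8.37, 8.57 and 8.27 in GFP arrays. The 3 groups did not overlap and stood in this order. The difference from the double knockdown was 0.41 ± 0.08 (SE, limma, adjusted p = 0.0545), just outside the threshold of 0.05, and the double knockdown remained 0.75 above GFP RNAi (limma, adjusted p = 0.00193).

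The other members did not pass the test between the knockdowns. msl-1, the scaffold subunit, differed by -0.20 ± 0.11 (SE), Unr, the RNA-binding partner of SXL on msl-2 mRNA, by -0.19 ± 0.15, and Clamp, a zinc finger protein that guides the complex to the X, by -0.05 ± 0.09. JIL-1, a histone H3 kinase, differed by 0.14 ± 0.14. Its mean level lay under 5.24, the median over all genes, where weak expression and background cannot be told apart without detection calls. msl-3, the chromodomain subunit, differed by 0.00 ± 0.10 on its brighter probe set. Its other probe set read 6.73, 6.45 and 6.92 in Sxl RNAi arrays, against 6.61 and 6.59 in double knockdown arrays and 5.35, 6.06 and 6.20 in GFP arrays, so both knockdown groups stood above GFP and overlapped each other. roX RNAs have no probe set named for them in the annotation used here.

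**Figure D1:**
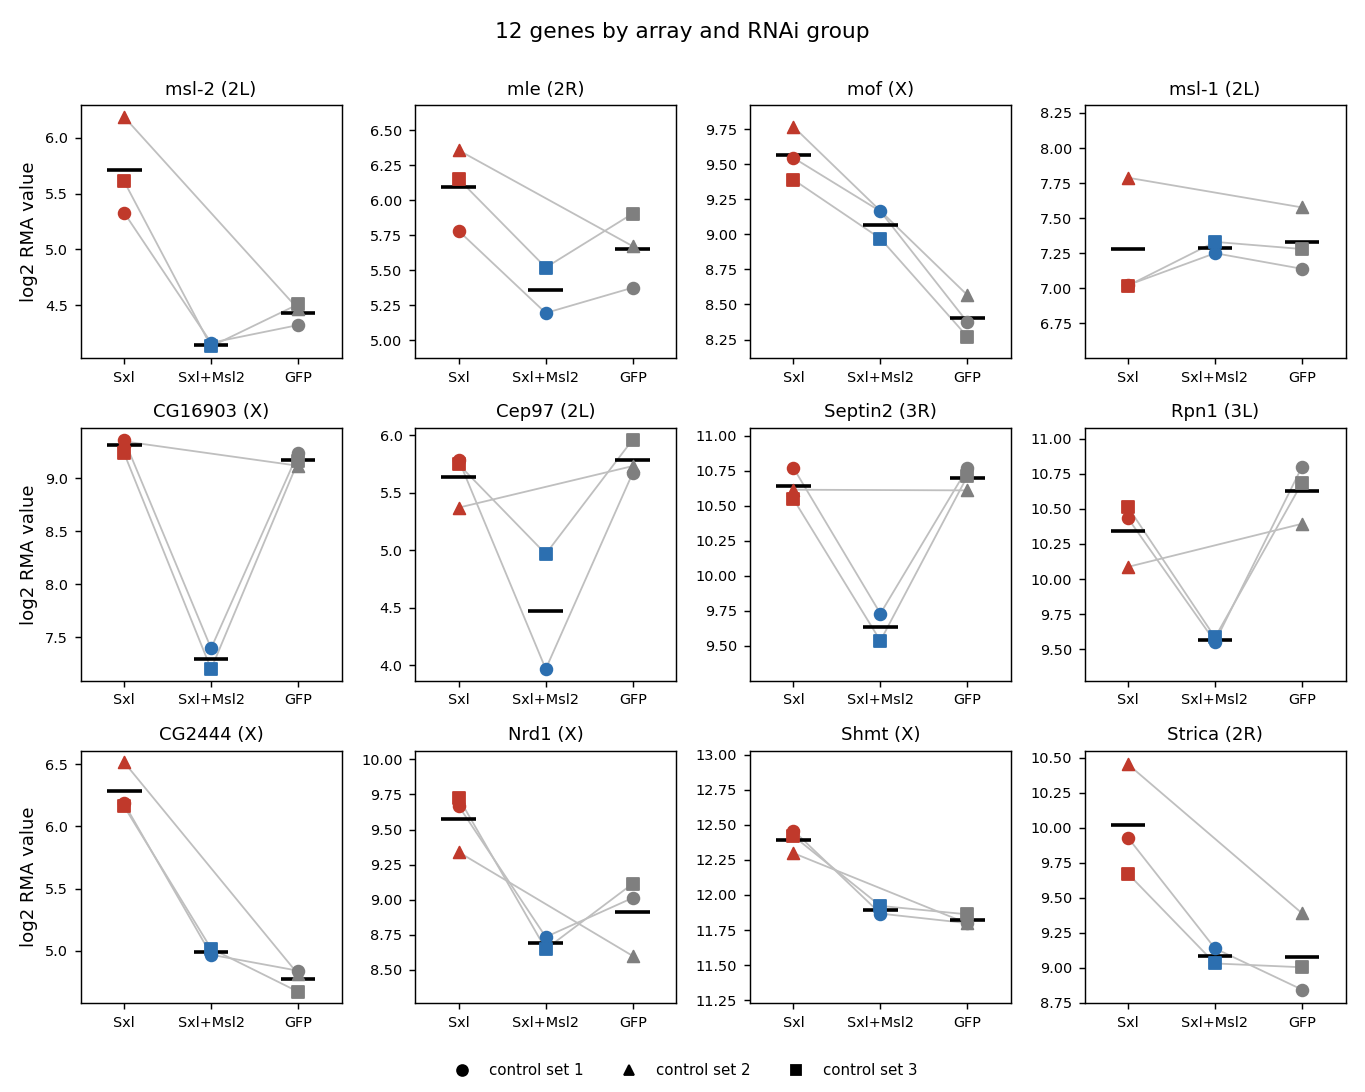
Log2 RMA values of 12 genes (vertical axis) in Sxl RNAi, Sxl and Msl2 RNAi (Sxl+Msl2) and GFP RNAi arrays; each point is an array, its shape gives the control set, black bars are group means and grey lines join arrays of a set. In the top row msl-2 and mle fall back to or below the GFP level in the double knockdown, mof lies between, and msl-1 shows no separation; in the middle row the double knockdown arrays alone are low.

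Across the genome, 93 of 11982 genes differed between Sxl RNAi and the double knockdown (limma with the control set as a block, Benjamini-Hochberg adjusted p under 0.05), which is 0.776% of the genes tested. Of these, 89 genes (0.743%) were higher in Sxl RNAi and 4 (0.0334%) were lower. The X chromosome held 67 of the 89 higher genes and none of the lower ones, so 72.0% of the calls were X-linked, whereas 15.6% of tested genes are on the X. A further 21 higher genes and all 4 lower genes were autosomal, and xmas-1 was not placed on an arm. By class, 3.58% of X genes and 0.210% of autosomal genes were called higher. Of the 93 genes, 74 did not overlap between the Sxl RNAi and double knockdown arrays, and all 93 had the same sign within both control sets. Over all genes tested these shares were 18.1% and 58.1%, and nothing is read from the counts, since the 93 genes were selected on the same arrays.

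The number of calls rests on the pairing and on few arrays. Without set 2, 88 genes were called and 67 of them were among the 93. Of the called genes described by name under the naming rule, 9 were lost in that fit (ND-75, CG13364, CG7872, CG8173, Acadvl, Idh3g, GstE9, CG10257 and l(2)41Ab, limma adjusted p up to 0.0809, with Idh3g just above 0.05). Leaving out double knockdown replicate 1 or 2 left 7 or 6 calls, leaving out Sxl RNAi replicate 2 or 3 left 20 or 11, and a fit with no block for the control set called 1 gene, CG16903. Centring the arrays on their expressed autosomal genes raised the count to 157. Only CG16903, CG2444 and Septin2 were called whichever 1 of the 8 arrays was left out.

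The shift of the X was spread over most of its expressed genes. Among expressed genes, those with a mean level above 5.24 (the median over all genes), the median difference was 0.14 for 1047 X genes and -0.05 for 4929 autosomal genes, a shift of 0.19, or 1.14-fold. Of the expressed X genes, 88.3% lay above the autosomal median. Within control set 1 the shift was 0.20 and within set 3 it was 0.17, and 663 expressed X genes (63.3%) were higher in Sxl RNAi in both sets, against 978 autosomal genes (19.8%). All 3 Sxl RNAi arrays lay above both double knockdown arrays for 260 expressed X genes (24.8%), beside 8.23% of all expressed genes and 4.69% of autosomal ones. RMA values are relative within an array, so the autosomal median of -0.05 and the X median of 0.14 show an unequal change of the classes and not the absolute change of either.

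**Figure D2:**
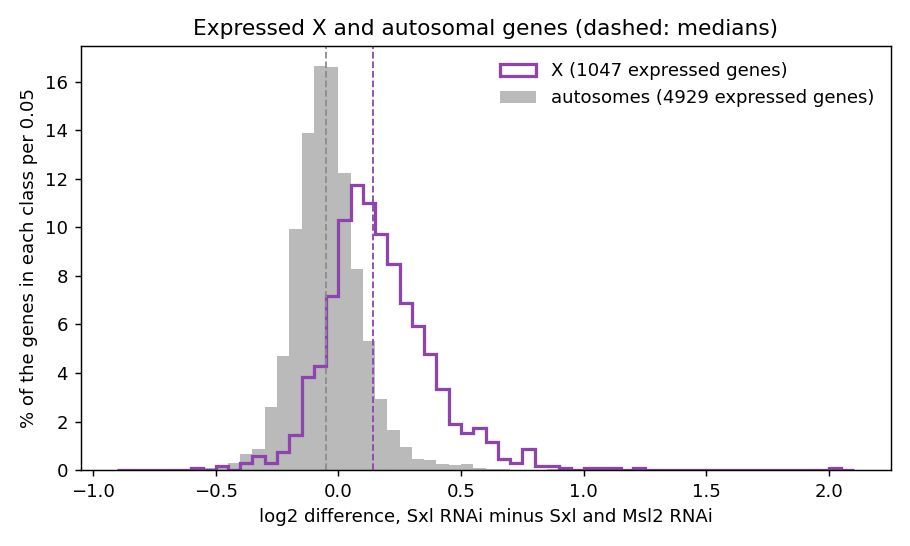
Distribution of the fitted log2 difference, Sxl RNAi minus Sxl and Msl2 RNAi (horizontal axis), as the percentage of 1047 expressed X genes (purple outline) and of 4929 expressed autosomal genes (grey) in each step; dashed lines mark the medians, 0.14 and -0.05. The whole X distribution is displaced, with a longer tail above 0.5 and CG16903 alone at 2.02.

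The same shift was followed array by array as the median deviation of X genes from their mean over all arrays, minus that of autosomal genes. It was 0.05, 0.21 and 0.18 in Sxl RNAi replicates 1, 2 and 3, against -0.01 in each double knockdown array and -0.08, -0.27 and -0.09 in GFP replicates 1, 2 and 3. The Sxl RNAi arrays all lay above the double knockdown arrays, and these all lay above the GFP arrays. Sxl RNAi averaged 0.15 ± 0.09 (SD, n = 3) and the double knockdown -0.01 ± 0.00 (SD, n = 2), a difference of 0.15 with an exact two-sided permutation p of 0.2, where 3 arrays against 2 allow no p below 0.1. That test takes no account of the control sets, within which Sxl RNAi exceeded the double knockdown by 0.22 in set 1 and 0.19 in set 3. Sxl RNAi replicate 1, the array of set 2 with no partner, was the lowest of its group, and its GFP array was the lowest of all. Against GFP RNAi, the fitted X shift was 0.28 for Sxl RNAi and 0.07 for the double knockdown, comparisons that share the GFP arrays.

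**Figure D3:**
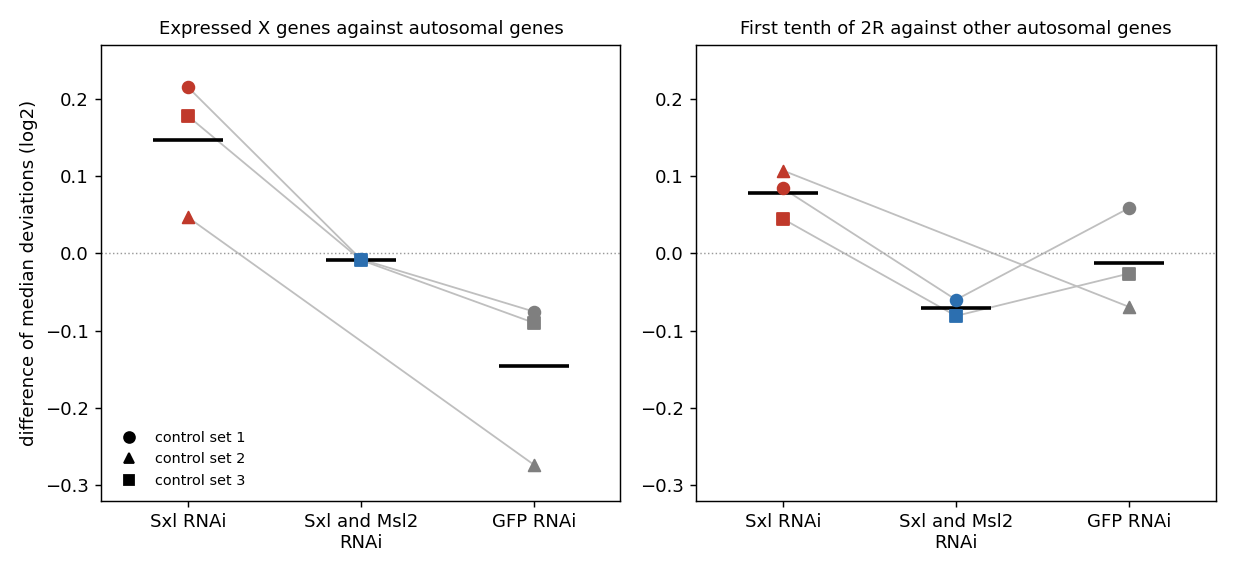
Left, median deviation of expressed X genes minus that of autosomal genes (log2, vertical axis) in each array of Sxl RNAi, Sxl and Msl2 RNAi and GFP RNAi; right, the same for the 123 expressed genes nearest the centromere on arm 2R against the other autosomal genes. Shapes give the control set, bars are group means; on the left the double knockdown arrays, both at -0.01, lie between the other groups, and on the right they lie below all Sxl RNAi arrays and overlap the range of GFP arrays.

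The X shift varied with the level of the genes. With all genes divided into 4 groups of equal size by mean level, the X median minus the autosomal median was 0.01 in each of the lower 2 groups, 0.17 in the group between 5.24 and 8.54 and 0.20 in the brightest group. The lower 2 groups held mean levels between 3.15 and 5.24, and the lowest value on any array was 3.07. Without detection calls, weakly expressed genes and genes at background cannot be told apart there, so nothing is read from the absence of a shift. None of the X genes of the lower 2 groups was called, against 26 of 506 (5.14%) and 41 of 541 (7.58%) in the upper 2. Over all genes, 2 of the 93 calls lay in the lower 2 groups, msl-2 and CG10257.

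Most called X genes moved by well under a doubling. Over the 67 genes the difference ran between 0.43 and 2.02 with a median of 0.58 (1.50-fold), and 50 of them were under 0.7. Their median difference from GFP RNAi was 0.53 for Sxl RNAi and -0.02 for the double knockdown, and in 44 of the 67 the double knockdown was within 0.2 of GFP RNAi. These medians describe genes that were selected by the same arrays.

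CG2444, with no role assigned here, had the largest difference of the called X genes after CG16903, which is described further on. It read 6.51, 6.18 and 6.16 in Sxl RNAi arrays, against 4.97 and 5.02 in double knockdown arrays and 4.84, 4.81 and 4.67 in GFP arrays. The Sxl RNAi arrays stood more than a unit above all others, and the difference was 1.23 ± 0.10 (SE, limma, adjusted p = 0.00134). Nrd1, which encodes a nardilysin metalloprotease, read 9.34, 9.67 and 9.72 in Sxl RNAi arrays, against 8.73 and 8.65 in double knockdown arrays and 9.01, 8.60 and 9.11 in GFP arrays. The Sxl RNAi arrays lay above all others, and the difference was 1.02 ± 0.09 (SE, limma, adjusted p = 0.00135). Ant2, an ADP/ATP carrier of the mitochondrial inner membrane, read 11.58, 10.43 and 11.01 in Sxl RNAi arrays, against 9.67 and 9.51 in double knockdown arrays and 9.94, 10.88 and 10.16 in GFP arrays. It separated the knockdown groups (1.14 ± 0.14, SE, limma, adjusted p = 0.008), whereas GFP replicate 2 lay within the Sxl RNAi range. Its paralogue sesB, which lies next to it and supplies most ADP/ATP carrier, differed by 0.02 ± 0.11 (SE).

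For other X genes with large changes the spread between sets was as wide as the change, and the comparison rested on the sets. Hgsnat, a lysosomal acetyltransferase of heparan sulphate breakdown, read 8.46, 9.39 and 9.32 in Sxl RNAi arrays, against 8.64 and 7.85 in double knockdown arrays and 8.49, 7.88 and 8.47 in GFP arrays. Sxl RNAi replicate 1 fell within the double knockdown range, while the differences within sets 1 and 3 were 0.75 and 1.48 and the fitted one 1.07 ± 0.16 (SE, limma, adjusted p = 0.0201). Without double knockdown replicate 2 it was 0.69 (limma, adjusted p = 0.204). CG15201 behaved alike, at 6.36, 7.63 and 7.42 in Sxl RNAi arrays, against 6.81 and 6.53 in double knockdown arrays and 6.93, 5.43 and 6.55 in GFP arrays. Both arrays of set 2 were about a unit lower than the rest of their groups, and the fitted difference was 0.88 ± 0.09 (SE, limma, adjusted p = 0.00358).

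Apart from Ant2, the brightest called X genes showed changes near 0.5. Shmt, the serine hydroxymethyltransferase of one-carbon metabolism, read 12.30, 12.46 and 12.42 in Sxl RNAi arrays, against 11.87 and 11.92 in double knockdown arrays and 11.80, 11.80 and 11.86 in GFP arrays. Every Sxl RNAi array was above every other array, by 0.53 ± 0.08 over the double knockdown (SE, limma, adjusted p = 0.0216). Mfe2, a peroxisomal enzyme of fatty acid oxidation, read 10.72, 10.72 and 10.68 in Sxl RNAi arrays, against 10.10 and 10.11 in double knockdown arrays and 9.87, 10.14 and 9.92 in GFP arrays. It showed the same separation, with a difference of 0.56 ± 0.09 (SE, limma, adjusted p = 0.0236). ND-75, a core subunit of respiratory complex I, read 10.85, 11.18 and 11.01 in Sxl RNAi arrays, against 10.73 and 10.57 in double knockdown arrays and 10.77, 10.46 and 10.55 in GFP arrays, again without overlap (0.44 ± 0.08, SE, limma, adjusted p = 0.0421). CG13364 (0.43), CG7872 (0.43), CG14411 (0.56) and CG8173 (0.45) complete the brightest called X genes, with SEs of 0.08 and adjusted p-values between 0.0201 and 0.0476 in the same limma fit.

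The remaining called X genes covered many functions. They included the lysosomal thioesterase gene Ppt1 (0.83), PIG-T of the GPI anchor transamidase (0.78), mRpL14 of the mitochondrial ribosome (0.75), Atg5 of the autophagy conjugation system (0.75), DNAlig4 of end joining (0.67), the cullin RING ligase subunit gene Roc1a (0.66), the Ajuba gene jub (0.59), the phospholipase C gamma gene sl (0.55), the kinase genes S6kII (0.67) and mbt (0.54), IntS2 of the Integrator complex (0.54) and dor of the vesicle tethering machinery (0.48). Each value is the log2 difference, and each gene passed the limma test with an adjusted p between 0.00398 and 0.0448. These were picked from the called genes after their values were seen.

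On the X the difference varied with position. With the expressed X genes in RefSeq order divided into 10 groups of 104 or 105 neighbours, the median was above 0 in all groups and ran between 0.08 (group 5, Bx42 to Kap3) and 0.24 (group 6, CG34348 to Neto). Group 6 held 14 of the 67 called genes, and its medians within sets 1 and 3 were 0.26 and 0.25, whereas group 5 held 3 and had medians of 0.09 in each set. Group 8, CG33172 to CG5004, came next with a median of 0.21. Counting only expressed genes, 7 pairs of called X genes were immediate neighbours, made up of 13 genes, such as PhKgamma with CG2444, MFS10 with CG4332, and the run CG7872, CG9215 and CG8097. With 67 of 1047 expressed X genes called, some pairs arise by placement alone. How many was not tested, so nothing is read from this count. The 2 dimmer probe sets of PhKgamma differed by 0.43 and 0.11. Both missed the threshold in the fit of all probe sets (limma, adjusted p = 0.151 and 0.766).

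The largest difference of all belonged to an X gene that did not follow the pattern of the X. CG16903 read 9.35, 9.36 and 9.24 in Sxl RNAi arrays, against 7.40 and 7.20 in double knockdown arrays and 9.24, 9.12 and 9.16 in GFP arrays. The double knockdown arrays stood far below every other array, while Sxl RNAi and GFP RNAi differed by 0.14. The difference between the knockdowns was 2.02 ± 0.08 (SE, 4.06-fold, limma, adjusted p = 7.47e-06).

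Among the 21 autosomal genes that were higher in Sxl RNAi, the median difference from GFP RNAi was 0.09 for Sxl RNAi and -0.66 for the double knockdown. In 12 of them the double knockdown lay more than 0.5 below GFP RNAi, against 1 of the 67 X genes. The genes of both classes were selected on the same double knockdown arrays, which favours low values there. The share over all genes was not counted, so nothing is read from these counts. Septin2, a filament-forming GTPase of the cell cortex, read 10.61, 10.77 and 10.55 in Sxl RNAi arrays, against 9.73 and 9.54 in double knockdown arrays and 10.77, 10.61 and 10.71 in GFP arrays. Only the double knockdown arrays were low, by 1.04 ± 0.08 below Sxl RNAi (SE, limma, adjusted p = 0.00134). Cep97, a centriole protein that limits centriole growth, read 5.37, 5.78 and 5.75 in Sxl RNAi arrays, against 3.97 and 4.97 in double knockdown arrays and 5.67, 5.73 and 5.96 in GFP arrays. Its double knockdown arrays were again the lowest but lay far apart, and the difference from Sxl RNAi was 1.25 ± 0.19 (SE, limma, adjusted p = 0.0201). Without double knockdown replicate 1 it was 0.81 (limma, adjusted p = 0.175).

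Rpn1, a subunit of the proteasome regulatory particle that had been listed among general reference genes, read 10.09, 10.43 and 10.51 in Sxl RNAi arrays, against 9.55 and 9.58 in double knockdown arrays and 10.80, 10.39 and 10.69 in GFP arrays. It was lowest in the double knockdown by 0.90 ± 0.08 relative to Sxl RNAi (SE, limma, adjusted p = 0.00292). Idgf6, a secreted chitinase-like growth factor, read 11.59, 11.88 and 11.76 in Sxl RNAi arrays, against 10.85 and 10.95 in double knockdown arrays and 12.12, 11.77 and 11.92 in GFP arrays. The double knockdown arrays did not overlap the others, and the difference was 0.92 ± 0.09 (SE, limma, adjusted p = 0.00358). CG5033 (0.88), Idh3g of the mitochondrial citrate cycle (0.53), Acadvl of fatty acid oxidation (0.48), the hexosamine pathway enzyme gene Gfat1 (0.63) and the glutathione transferase gene GstE9 (0.52) were likewise lowest in the double knockdown, which lay 0.66 to 1.04 below GFP RNAi. For Gfat1 the knockdown groups overlapped, with Sxl RNAi replicate 1 at 6.20 between the double knockdown arrays at 6.26 and 6.07. Gfat1 and GstE9 were also below GFP RNAi in Sxl RNAi, by 0.32 and 0.52, and the second probe set of each, at a lower level, differed between the knockdowns by 0.10 and -0.06.

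**Figure D4:**
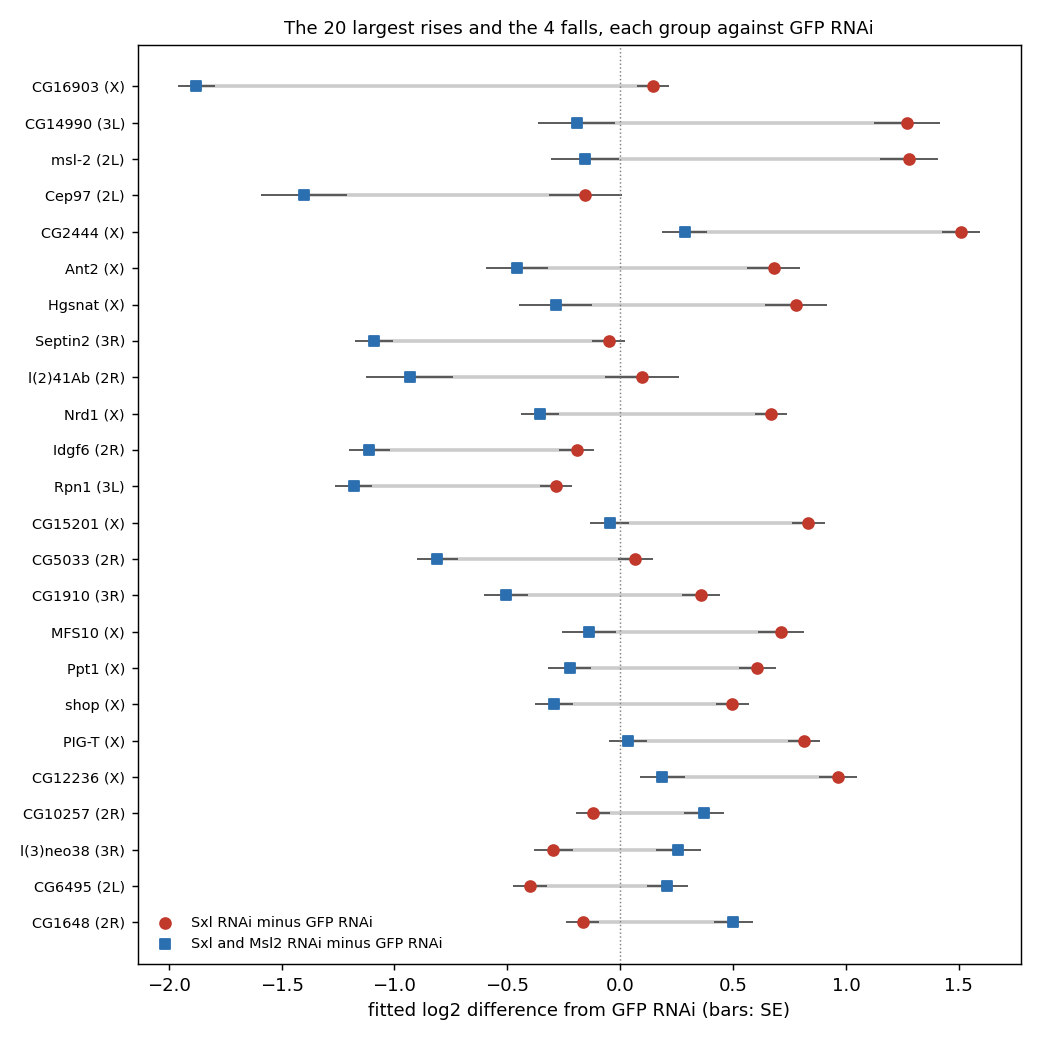
Fitted log2 difference from GFP RNAi (horizontal axis; bars are SE) of Sxl RNAi (red circles) and of Sxl and Msl2 RNAi (blue squares) for the 20 largest rises and the 4 falls between the knockdowns, one gene per line with its arm; the groups share the GFP arrays. For CG16903, Cep97, Septin2, Idgf6, Rpn1 and CG5033 the blue squares lie between -1.88 and -0.81 with the red circles between -0.28 and 0.14, while for msl-2, CG14990, CG2444 and PIG-T the red circles lie between 0.81 and 1.51 with the blue squares between -0.19 and 0.29.

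Other autosomal genes were raised above GFP RNAi in Sxl RNAi. CG14990, on 3L, read 6.00, 8.24 and 7.16 in Sxl RNAi arrays, against 6.30 and 6.04 in double knockdown arrays and 6.50, 4.99 and 6.09 in GFP arrays. The array of set 2 lay below the double knockdown arrays, and the differences within sets 1 and 3 were 1.94 and 1.12, with a fitted 1.46 ± 0.17 (SE, limma, adjusted p = 0.00587). CG1910, on 3R, read 9.75, 10.59 and 9.90 in Sxl RNAi arrays, against 9.58 and 9.10 in double knockdown arrays and 10.03, 9.56 and 9.57 in GFP arrays, so that the knockdown groups were separate and GFP lay across both (0.86 ± 0.10, SE, limma, adjusted p = 0.00553).

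Of the 21 autosomal genes, 11 were on arm 2R, which held 2428 of the 10018 autosomal genes tested. By share, 0.453% of 2R genes were called higher, beside 0.210% of all autosomal genes. Of the 11, 6 lay in the group of 123 expressed genes nearest the centromere (CG40498 to wech), a grouping that was examined after the values had been seen. The median difference of this group was 0.09. The medians of the other 39 groups of autosomal neighbours ran between -0.09 and -0.01, and those of the 10 X groups between 0.08 and 0.24. Within sets 1 and 3 the medians were 0.05 and 0.09, and 62 of the 123 genes (50.4%) were higher in Sxl RNAi in both sets, beside 19.8% of all expressed autosomal genes. Against the other autosomal genes, the group stood at 0.11, 0.08 and 0.04 in Sxl RNAi replicates 1, 2 and 3, against -0.06 and -0.08 in double knockdown replicates 1 and 2 and 0.06, -0.07 and -0.03 in GFP replicates 1, 2 and 3. The Sxl RNAi arrays lay above the double knockdown arrays, and the GFP arrays spanned both.

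Counting only expressed genes, most of the called genes of this stretch were neighbours, and how often placement alone would give this was not tested. Yeti, a chromatin protein needed in heterochromatin, was followed by l(2)41Ab, and mle by Pngl and then Strica, with Fmo-2 further along. Strica, a caspase, read 10.45, 9.93 and 9.67 in Sxl RNAi arrays, against 9.14 and 9.03 in double knockdown arrays and between 8.84 and 9.39 in the 3 GFP arrays. It was highest in Sxl RNAi without overlap, by 0.75 ± 0.11 (SE, limma, adjusted p = 0.0172). Fmo-2, a flavin monooxygenase, read 10.03, 9.69 and 9.67 in Sxl RNAi arrays, against 9.15 and 9.02 in double knockdown arrays and 8.71 in GFP replicates 1 and 3, with GFP replicate 2 higher but below both double knockdown arrays. It also separated the groups, by 0.60 ± 0.08 (SE, limma, adjusted p = 0.012). Pngl, a peptide N-glycanase, differed by 0.49 ± 0.08 and Yeti by 0.57 ± 0.09 (SE), with limma adjusted p-values of 0.0275 and 0.0201. l(2)41Ab read 8.01, 8.33 and 7.62 in Sxl RNAi arrays, against 6.89 and 7.07 in double knockdown arrays and 8.36, 7.77 and 7.53 in GFP arrays, and was thus low in the double knockdown alone (1.03 ± 0.19, SE, limma, adjusted p = 0.0485). Without double knockdown replicate 1 the difference was 0.55 (limma, adjusted p = 0.286). Its 2 other probe sets, both dimmer, differed by 0.17 and 0.18. In the fit of all probe sets its brightest one missed the threshold (limma, adjusted p = 0.0622).

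**Figure D5:**
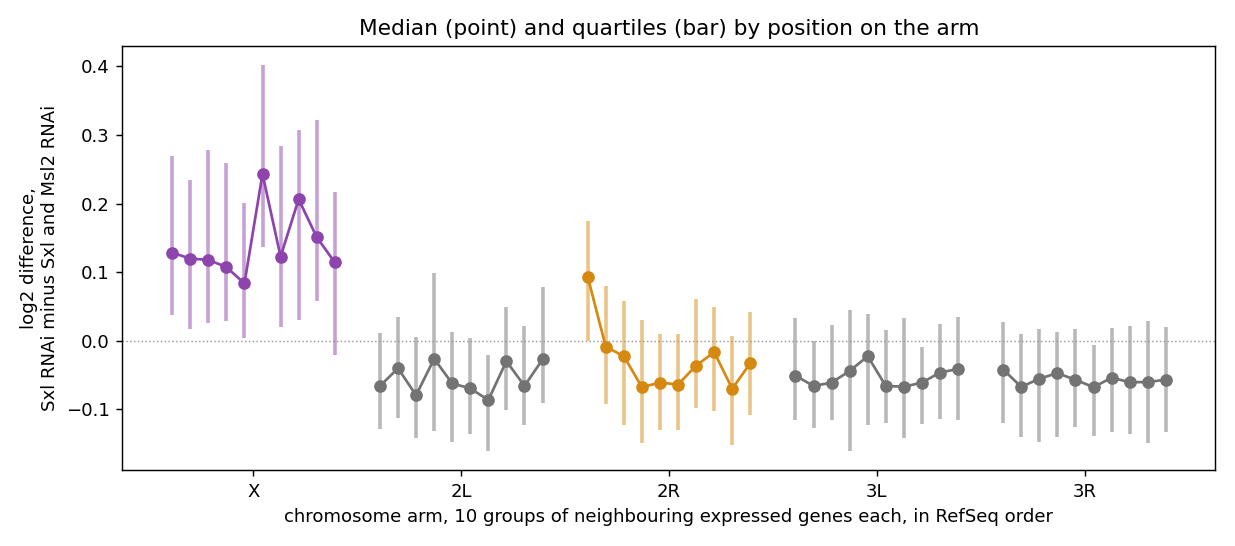
Median (points) and quartiles (bars) of the log2 difference, Sxl RNAi minus Sxl and Msl2 RNAi (vertical axis), over 10 groups of neighbouring expressed genes along each arm in RefSeq order (horizontal axis); groups hold 104 to 146 genes. All X groups lie above 0, and among autosomal groups only the one nearest the centromere of 2R does, at 0.09.

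The 4 genes that were lower in Sxl RNAi were autosomal, and in all of them the double knockdown was the highest group. CG1648 read 5.27, 6.90 and 6.64 in Sxl RNAi arrays, against 7.45 and 7.42 in double knockdown arrays and 6.99, 5.43 and 6.88 in GFP arrays. The arrays of set 2 were again the lowest, and the difference was -0.67 ± 0.09 (SE, limma, adjusted p = 0.0101). CG6495 differed by -0.61 ± 0.09 and l(3)neo38, a zinc finger gene, by -0.55 ± 0.10 (SE), without overlap of the knockdown groups. CG10257, at a mean level of 4.41 below the limit for expressed genes, differed by -0.49 ± 0.09, and its groups overlapped. The limma adjusted p-values of these 3 were 0.0184, 0.0448 and 0.0448. Of the 4 probe sets of l(3)neo38, the other 3 were dimmer and differed by -0.20 to 0.06. In the fit of all probe sets the brightest one missed the threshold (limma, adjusted p = 0.0542).

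Some genes named from the lists differed from GFP RNAi in both knockdown groups, comparisons that share the GFP arrays. ssx, the X-linked sister gene of Sxl, read 8.16, 7.99 and 7.98 in Sxl RNAi arrays, against 8.31 and 8.19 in double knockdown arrays and 9.59, 9.17 and 9.44 in GFP arrays. All knockdown arrays stood well below all GFP arrays, and they differed from each other by -0.17 ± 0.12 (SE, limma, adjusted p = 0.672). Mcm6, a subunit of the replicative helicase encoded on the X, read 11.08, 11.38 and 11.51 in Sxl RNAi arrays, against 11.18 and 11.32 in double knockdown arrays and 10.39, 10.49 and 10.77 in GFP arrays. The knockdown groups overlapped and lay above GFP RNAi. ImpL2, a secreted insulin-binding protein, Cth of cysteine synthesis and Dcr-2, the nuclease of the RNA interference pathway, likewise differed by 0.11 ± 0.10, -0.01 ± 0.12 and -0.13 ± 0.09 between the knockdowns (SE), and by -0.53, 0.76 and -0.65 between Sxl RNAi and GFP RNAi, beside -0.64, 0.77 and -0.51 between the double knockdown and GFP RNAi. The smallest rise called for any X gene was 0.43, so smaller differences between the knockdowns may have been missed for such genes.

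The expressed X genes with the largest falls did not pass the test. Ypel differed by -0.58 ± 0.15, CG15347 by -0.47 ± 0.11, Sxl by the -0.47 given above, tyf by -0.37 ± 0.22 and CG1503 by -0.36 ± 0.16 (SE), with limma adjusted p-values between 0.111 and 0.608. CG15347 also showed the offset of set 2, at 5.67, 8.58 and 8.42 in Sxl RNAi arrays, against 8.79 and 9.11 in double knockdown arrays and 8.29, 5.60 and 8.34 in GFP arrays. In all, 124 expressed X genes (11.8%) were lower in Sxl RNAi in both control sets, against 2159 autosomal genes (43.8%).

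The functional lists are described by their medians, because at the share of 0.776% called among all genes a list of such length is expected to hold less than 1 called gene. The 50 measured genes of oxidative phosphorylation had 1, ND-75, with a list median of 0.01, and the 5 general reference genes had 1, Rpn1. None of the 17 classic X-linked genes such as Hsc70-3 (0.12 ± 0.08, SE) was called. Of these, 13 were expressed, and the median of all 17 was 0.14, beside 0.07 for all X genes tested. None was called among 23 cytosolic ribosomal protein genes (median -0.01, with RpL15 0.00 and RpS26 -0.03), 21 genes of the cell cycle and DNA replication (-0.05, with PCNA 0.03), 12 chaperone genes (0.02, with Hsp60A 0.08, Hsc70-4 -0.04), 11 genes of RNA interference (-0.05, with armi -0.21), 6 genes of the NSL complex, the other MOF-containing complex (-0.11, with Rcd1 -0.26, Rcd5 -0.15), 16 genes of transcription elongation (-0.06, with spt4 -0.03, dre4 -0.17) or 25 chromatin factors tied to the MSL complex or the male X (-0.13, with Nap1 -0.16). In some lists the X members were higher than the autosomal ones: the 9 X-linked oxidative phosphorylation genes had a median of 0.21, beside -0.02 for the autosomal ones, and the 5 X-linked chromatin factors one of 0.22, beside -0.14. In others they were not, with medians for X and autosomal members of -0.29 and -0.09 in the sex determination list, where the X members were 2 and included Sxl itself, and of -0.12 and -0.08 in that of apoptosis and DNA damage, with 3 X members.

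The same holds for the other lists, in which none was called among 15 genes of sex determination (-0.10, with tra2 -0.01, da 0.07), 5 of the ELAV and Sxl family (-0.13, with elav 0.22), 16 antimicrobial and immune genes (0.04, with PGRP-LE 0.29, cact 0.03), 16 of apoptosis and DNA damage (-0.08, with p53 0.08, Ku80 0.05), 14 of the Notch pathway (0.04, with kuz 0.07, Psn -0.03), 19 of the ecdysone response (-0.06) and 12 autosomal metabolic enzymes (-0.07, with Eno 0.01, mAcon1 -0.09). Markers of cell types were examined in the same way. Of 21 plasmatocyte markers, the blood cell type that Kc cells resemble, 17 were expressed and none was called. Their median was 0.01, but single markers ran between -0.36 and 0.65. The 2 of highest level were the laminin genes LanB2 (0.04) and LanA (0.01). Of the markers of other cells, 6 of 12 for crystal cells and lamellocytes (Pvf2 0.19, mys 0.14), 2 of 10 for neurons (brp -0.04), 1 of 9 for muscle (Prm 0.25, sls -0.08), 2 of 7 for fat body (FASN1 -0.17, Desat1 0.09) and 4 of 17 for germ line and testis (mia -0.20, pum -0.18) were expressed, and none of these lists held a called gene. The lists of other cells had medians between -0.03 and 0.06. All values in brackets are log2 differences, Sxl RNAi minus the double knockdown.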

How the data were processed

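Total RNA from Kc cells was hybridised to Affymetrix arrays, and the authors summarised the probe intensities by RMA, as given in the submitters' processing notes; the deposited table holds log2 values, which RMA puts on 1 scale across arrays. The table had 18952 probe sets. Control probe sets (183) and probe sets with several (402) or no (4720) gene symbols were left out of the gene tests, and the brightest probe set was kept for each of 11982 genes. Arms and gene order came from the RefSeq annotation (assembly Release 6 plus ISO1 MT), matched by gene identifier or else by symbol (83 genes unmatched). Genes were ordered along each arm by their start coordinates, and distances between genes were not used.

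Differences were fitted in limma (version 3.58.1, R 4.3.3) to all 8 arrays by a model of RNAi group plus control set (3 residual and 6.53 prior degrees of freedom), and called at a Benjamini-Hochberg adjusted p under 0.05. The control set pairs arrays because the labels name the shared GFP array. Over expressed genes, deviations from group means correlated at 0.38 for Sxl RNAi replicate 2 with double knockdown replicate 1 and at 0.51 for Sxl RNAi replicate 3 with double knockdown replicate 2. With 2 double knockdown arrays, the crossed pairings take the same values with the opposite sign, so these correlations are not independent. Sxl RNAi replicate 1, which has no partner, gave 0.08 and -0.08.

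Genes were named by rule: Sxl and the MSL list; the 15 largest rises and falls with 1 sign in both sets; the 8 called X and 8 called autosomal genes of highest level; up to 4 called members of each other list, or its 2 brightest; called genes of chromosome 4 (there were none); and the 5 largest falls of expressed X genes. Members and lists were chosen with earlier results of these data known. Alternatives changed the arrays, block, scaling, probe set rule, genes tested and variance model. The number of arrays limits the precision.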

Additional observations from a re-analysis of the deposited data

Results flagged for a closer look

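Probe sets to which the annotation gives no gene symbol were outside the gene tests. In a limma fit of all 18769 non-control probe sets, 105 were called, and 21 of these were among the 4720 without a symbol (0.445%), with 19 higher and 2 lower in Sxl RNAi. The largest difference, 1.02 ± 0.15 (SE; limma, adjusted p = 0.0281), was that of 1636882_s_at. The smallest adjusted p among them was that of 1627470_at, which read 8.72, 9.18 and 9.14 in Sxl RNAi arrays, against 8.44 and 8.30 in double knockdown arrays, with a difference of 0.80 ± 0.08 (SE; limma, adjusted p = 0.00576). A further 4 called probe sets matched several genes. No group held over 3 arrays, so single outlying values within a group were not tested.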

How the results depend on the processing

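The count of 93 called genes, 67 of them higher X genes, depended on the model and on single arrays. It was 1 gene, an X gene, with no replicate block, with the title number as replicate block, and with the 2 groups alone and no replicate block. With the 2 pairs alone and the control set as replicate block it was 233 genes, of which 134 were higher X genes; with arrays centred on autosomal genes 157 and 118; and with trend and robust variance estimates 227 and 155. Leaving out 1 array at a time gave 6 to 88 genes and 2 to 58 higher X genes, and an X minus autosome shift of 0.18 to 0.22. Sets 1 and 3 alone with their replicate block, renewed quantile normalization, the mean of all probe sets and testing expressed genes only gave 88 to 113 genes. The share of calls in the higher direction was 81.5% with the 2 pairs alone, beside 95.7% in the fit as reported. The X shift kept its sign in every setting and was 0.14 with no replicate block, 0.12 with title numbers as block and 0.09 when dim genes were included.

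The msl-2 difference stayed between 1.30 and 1.61 when 1 array was left out, but missed the threshold without double knockdown replicate 1 (adjusted p = 0.0941, limma) or 2 (adjusted p = 0.12), and at 1.56 with no replicate block, 1.57 with title numbers as block and 1.56 with the 2 groups alone. It was not tested among expressed genes only, since its mean level is under the limit. The mof difference passed with the 2 pairs alone and their block (0.40), after centring (0.46), after quantile normalization (0.41), among expressed genes only (0.41) and with trend and robust estimates (0.41), and ran between 0.38 and 0.44 when 1 array was left out. The Sxl difference passed with the 2 pairs alone and their block, at -0.50, and ran between -0.67 and -0.24 when 1 array was left out. The causes were not tested.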
